A study of Caenorhabditis elegans with 2 samples.

Results

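The small nuclear RNA (snRNA) genes and SL2 spliced leader genes of Caenorhabditis elegans were examined for binding of NHR-41, a nuclear receptor. The members were all 129 nuclear genes that Ensembl release 115 annotates as snRNA, of 46890 nuclear genes in all. This biotype holds all 18 genes whose names start with sls-2, so the set divided into 18 sls-2 genes and 111 other snRNA genes. Binding was mapped by chromatin immunoprecipitation and sequencing (ChIP-seq) in whole L4 larvae of strain RW12221, in which CRISPR editing placed a TY1, EGFP and 3xFLAG tag at the nhr-41 gene. The larvae came from eggs freed by bleaching, were starved at the L1 stage, and were collected at 48.5 h. An antibody against GFP recovered the tagged protein. All samples carried the tag and belonged to 1 group of 2 biological replicates, so the comparisons were between genes, and binding in whole larvae cannot be assigned to a tissue. A gene was counted when a summit, the highest point of a peak, lay within 500 bp of it in the conservative list of 1069 peaks that the authors derived from both replicates.

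Spliced leaders are short RNA sequences that nematodes join to the front of many messenger RNAs by trans-splicing. SL2 is used mainly for the downstream genes of operons, where several genes share a promoter, and SL1 is used mainly for genes at the front. The leader is donated by a small RNA, made from an sls-2 or sls-1 gene, which carries a cap and Sm proteins much as the spliceosomal snRNAs do. The spliceosomal snRNAs recognise splice sites and form the catalytic core of the spliceosome. In animals, short genes of this kind are transcribed by RNA polymerase II or III from a compact promoter, in which the SNAPc complex binds an element a short way upstream of the start. Many nuclear receptors bind DNA through the half-site AGGTCA, and some that bind as monomers prefer it with further bases in front, as in AAGGTCA.

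Part of the sls-2 genes carried the extended half-site inside the RNA-coding sequence. The sequences below are shown because they differ in that element. They are from the RefSeq genome of assembly WBcel235, which is the build ce11 of the peak lists, 5′ to 3′ on the gene's own strand. The genes are sls-2.1 at chrII:5844865-5844974 (plus strand), sls-2.2 at chrII:5543598-5543707 (plus strand), sls-2.3 at chrII:5544164-5544273 (minus strand), sls-2.10 at chrIV:9130721-9130829 (minus strand), sls-2.11 at chrIV:9140415-9140523 (plus strand), sls-2.16 at chrIII:7141391-7141499 (plus strand), sls-2.8 at chrIII:12250465-12250575 (plus strand) and sls-2.18 at chrIII:7142291-7142397 (plus strand). Capitals mark TGACCTT, which is AAGGTCA read on the opposite strand.
sls-2.1: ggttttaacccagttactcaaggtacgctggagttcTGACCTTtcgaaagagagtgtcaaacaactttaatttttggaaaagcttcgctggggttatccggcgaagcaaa
sls-2.2: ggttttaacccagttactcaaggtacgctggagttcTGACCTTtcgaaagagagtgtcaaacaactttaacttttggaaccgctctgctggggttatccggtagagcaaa
sls-2.3: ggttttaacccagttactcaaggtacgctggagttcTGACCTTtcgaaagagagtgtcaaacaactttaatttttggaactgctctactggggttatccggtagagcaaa
sls-2.10: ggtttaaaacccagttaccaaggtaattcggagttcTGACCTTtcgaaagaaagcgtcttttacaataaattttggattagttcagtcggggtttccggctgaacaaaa
sls-2.11: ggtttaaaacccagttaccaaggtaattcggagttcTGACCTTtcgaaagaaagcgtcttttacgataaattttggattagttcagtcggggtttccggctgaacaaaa
sls-2.16: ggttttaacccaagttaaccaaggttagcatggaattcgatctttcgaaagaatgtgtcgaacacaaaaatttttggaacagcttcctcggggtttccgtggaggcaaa
sls-2.8: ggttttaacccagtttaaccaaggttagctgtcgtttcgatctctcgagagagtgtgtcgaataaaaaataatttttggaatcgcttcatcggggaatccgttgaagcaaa
sls-2.18: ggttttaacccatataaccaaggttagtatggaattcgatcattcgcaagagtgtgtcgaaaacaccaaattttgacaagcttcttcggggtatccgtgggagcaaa
The heptamer began at base 37 of the gene in 6 of the 18 sls-2 genes, namely those printed with capitals and sls-2.4. In the first 4 printed sequences it lay in a gene with a summit in the conservative list. The fifth, sls-2.11, had none, although it differed from sls-2.10 by a single base, A65G, counted from base 1 of the gene with sls-2.10 first. The 250 bases upstream of sls-2.10 and sls-2.11 were 93.2% identical. Of the sequences without the heptamer, sls-2.16 had no summit in the conservative list, while sls-2.8 and sls-2.18 had one. Across all 153 pairs of sls-2 genes the identity ran from 69.7% to 99.1%, with a median of 78.2%.

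Upstream of the genes a different element was shared between sls-2 and other snRNA genes. The sequences below run from 100 bases before the start to 20 bases into the gene, and they are shown because they hold or lack an exact copy of this element. They are W05B2.8 at chrIII:10989579-10989698 (plus strand), F54D8.7 at chrIII:5080879-5080998 (minus strand), C28A5.7 at chrIII:4426936-4427055 (minus strand), K09B11.13 at chrIV:13440634-13440753 (minus strand), sup-6 at chrII:12944948-12945067 (minus strand), sup-39 at chrII:6968539-6968658 (minus strand) and sls-2.1 at chrII:5844765-5844884 (plus strand). Capitals mark the overlapping 8-mers GCGGAACC and CGGAACCC, and further downstream the heptamer TATATAA.
W05B2.8: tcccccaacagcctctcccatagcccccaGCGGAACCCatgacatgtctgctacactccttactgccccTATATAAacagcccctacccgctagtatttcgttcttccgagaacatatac
F54D8.7: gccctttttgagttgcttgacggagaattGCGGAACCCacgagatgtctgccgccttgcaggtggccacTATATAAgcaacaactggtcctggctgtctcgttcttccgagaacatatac
C28A5.7: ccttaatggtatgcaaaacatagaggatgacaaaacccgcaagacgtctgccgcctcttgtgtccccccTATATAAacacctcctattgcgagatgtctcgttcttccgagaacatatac
K09B11.13: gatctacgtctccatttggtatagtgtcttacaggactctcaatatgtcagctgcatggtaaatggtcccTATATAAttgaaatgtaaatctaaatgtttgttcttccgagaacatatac
sup-6: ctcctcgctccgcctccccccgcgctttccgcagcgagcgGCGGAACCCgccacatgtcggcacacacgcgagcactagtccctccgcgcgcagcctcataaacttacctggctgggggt
sup-39: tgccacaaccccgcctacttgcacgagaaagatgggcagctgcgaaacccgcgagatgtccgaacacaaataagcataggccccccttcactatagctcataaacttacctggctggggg
sls-2.1: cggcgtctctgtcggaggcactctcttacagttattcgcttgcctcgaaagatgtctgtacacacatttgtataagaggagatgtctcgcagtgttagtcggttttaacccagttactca
The first 6 genes printed are other snRNA genes. W05B2.8, F54D8.7 and C28A5.7 had a summit in the conservative list, and so did sup-6, sup-39 and sls-2.1. K09B11.13, which holds TATATAA but not the upstream 8-mers, had none. Y17G9A.85 and T08B6.62, which are not printed, hold both the upstream 8-mers and TATATAA and had no summit either. The printed genes therefore do not show that these elements go with a summit. C28A5.7, sup-39 and sls-2.1 had a summit without an exact copy of the upstream 8-mers in this window. C28A5.7 and sup-39 held a related 8-mer, AAACCCGC, which is not in capitals and began 68 and 56 bases upstream.

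A summit lay near 8 of the 18 sls-2 genes, against 8 of the 111 other snRNA genes. The share was 44.4% of sls-2 genes (exact 95% binomial interval 21.5 to 69.2) and 7.21% of other snRNA genes (3.16 to 13.7), and these intervals do not overlap. Of all 129 members 16 had a summit, which is 12.4% (7.26 to 19.4), against 3.59% of all nuclear genes, a class in which many genes make piRNAs and 0.365% of those had a summit. The sls-2 share was close to the 42.0% of the 612 tRNA genes, the adaptors of translation, and the snoRNA genes, which guide RNA modification, had 21.1% of 346 (16.9 to 25.8), an interval that overlaps that of the sls-2 genes. The protein-coding genes, at 4.14%, lie inside the interval of the other snRNA genes, and miRNA genes had 3.07%. In these counts the other snRNA share is not set apart from the protein-coding share. Gene length differs, however, with a median of 2027 bp for protein-coding genes against 109 bp for snRNA genes. Summits were counted within 500 bp of the whole gene, so a longer gene offers more room, and length was not adjusted for. These shares are descriptions, because genes are not replicates, and no test of the difference was run.

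**Figure D1:**
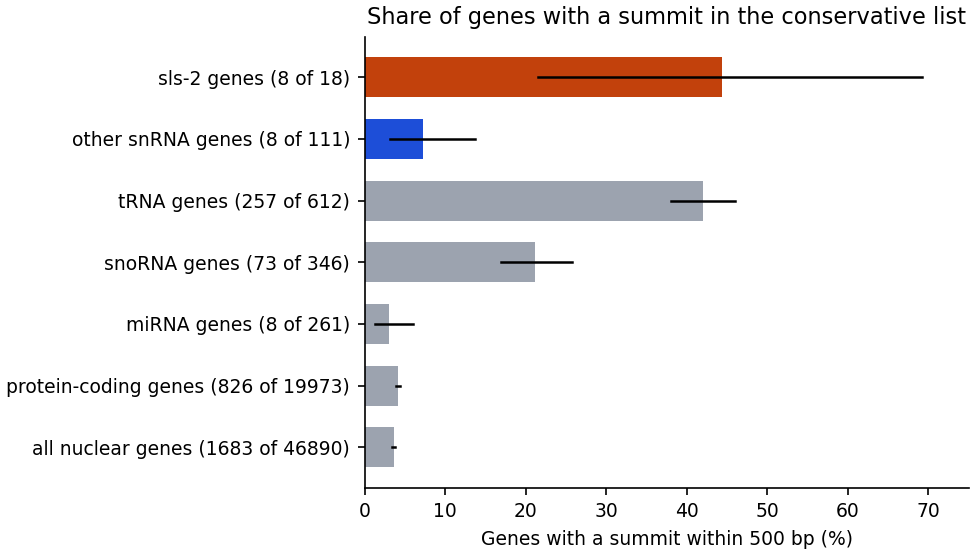
Share of genes with a summit within 500 bp in the conservative list (percent, horizontal axis) for each gene class, with the number of genes beside each name. Bars give the share and black lines the exact 95% binomial interval; the sls-2 bar stands at 44.4%, beside 7.21% for other snRNA genes and 3.59% for all nuclear genes.

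The 16 genes were reached by 18 peaks, of which 11 lay near sls-2 genes and 7 near other snRNA genes. The signal of a peak was taken as the authors deposited it. It was available for each replicate from that replicate's own ranked list, and those values are given below as replicate 1, replicate 2 and their mean ± SD (n = 2). The 18 peaks had a median signal of 80.4, against 82.8 for all 1069 peaks. Some neighbouring peaks shared the same pair of replicate peaks, so the 18 peaks rest on 15 such pairs, and the 3 weaker partners had signals of 32.3, 9.04 and 3.25. With 1 peak per pair the medians were 89.0 over 15 member peaks and 83.8 over all 1018, so the direction of the difference turns with this choice. The signals given below for single genes are those of the stronger peak of each pair. Counts out of 18 peaks, and the 20 pairs of a summit and a gene, keep the weaker partners.

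Among sls-2 genes the highest signal was at sls-2.1, at 188.9, which placed it 23rd of the 1069 peaks. Its replicate signals were 84.7 and 106.8 (mean 95.8 ± 15.6). The summit lay 26 bp upstream of the start, and also in the promoter of the protein-coding gene H41C03.3. The promoter of a protein-coding gene was taken from 1000 bp before to 200 bp past a transcript start. At sls-2.4 the signal was 166.6, with 68.3 and 81.4 in the replicates (74.8 ± 9.23). This summit lay 156 bp from the start and past the end of the gene, in the promoter of egg-5, which encodes a pseudophosphatase of the egg. Both genes exceeded the median replicate signals of all conservative peaks, which were 36.9 in replicate 1 and 47.0 in replicate 2.

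The neighbours sls-2.2 and sls-2.3 each had a peak of their own. At sls-2.2 the signal was 121.4, with 61.7 and 59.5 in the replicates (60.6 ± 1.58), and the summit lay 17 bp into the gene. At sls-2.3 it was 79.2, and the replicates were far apart at 24.4 and 59.9 (42.1 ± 25.1). The summit at sls-2.3 lay 27 bp into the gene. The sls-2.8 peak had a signal of 89.3, with 51.4 and 45.5 in the replicates (48.5 ± 4.17), and its summit lay 72 bp upstream, near the upstream 8-mers and in the promoters of tim-1 and Y75B8A.23.

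The last 3 sls-2 genes had nearly equal signals of 70.3, 69.2 and 69.2, below the median of the list. The replicates read 37.0 and 32.4 at sls-2.9 (34.7 ± 3.27), where the summit was 102 bp upstream and a tRNA gene lay within 500 bp. They read 33.9 and 36.6 at sls-2.10 (35.2 ± 1.91), with the summit 50 bp into the gene. They read 36.9 and 34.5 at sls-2.18 (35.7 ± 1.70), with the summit 70 bp into the gene. The order of these 3 genes was not the same in the replicates, so they cannot be ranked.

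Among the other snRNA genes, W05B2.8 had the highest signal, 180.1, which placed it 27th of 1069. It lies within the dynein heavy chain gene dhc-4, and its replicate signals were almost equal at 91.4 and 90.9 (91.1 ± 0.33). It belongs to a family of 24 genes, joined at 70% sequence identity and called here by its member R07E5.16, and 22 of these hold the heptamer ACAGAGA, known from U6 snRNA. The annotation used here does not name the RNA that these genes make. F54D8.7 of the same family had a signal of 89.0, with 48.1 and 44.5 in the replicates (46.3 ± 2.51). Its summit lay 49 bp into the gene and in the promoter of cox-6A, which encodes a subunit of cytochrome c oxidase. C28A5.7, the third of the family, had a signal of 70.3, with 35.7 and 32.2 in the replicates (34.0 ± 2.48). The other 21 genes of the family had no summit in the conservative list. The RNA-coding sequences of W05B2.8 and C28A5.7 are identical to each other and to those of 12 further members, so these genes differ in their flanks and not in the gene itself. The sequence of each of these 3 genes occurs at 17 places in the genome, which limits how surely reads within the gene can be placed.

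The U1 snRNA family gave another 3 genes with a summit. sup-6 and sup-39 were found as suppressor genes and encode U1 snRNA, which pairs with the 5′ splice site. At sup-6 the signal was 123.6 and the replicates differed widely, at 37.0 and 77.9 (57.5 ± 28.9). At sup-39 the signal was 81.6, with 45.5 and 28.5 in the replicates (37.0 ± 12.05), and the summit lay in the promoter of eif-2Bgamma, a translation initiation factor gene. This peak also counted for mir-1831, which Ensembl annotates as snRNA and which lies inside sup-39. Without mir-1831, 7 of 110 other snRNA genes had a summit, which is 6.36%. F08H9.10, of the same family as sup-6 by sequence, had a signal of 74.9, with 27.04 and 40.8 in the replicates (33.9 ± 9.76), and its summit lay in the promoter of F08H9.3. The summits lay 82, 55 and 77 bp into these genes, each of which is 165 bases long. The replicates ordered the 3 genes differently, with sup-39 highest in replicate 1 and lowest in replicate 2.

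The remaining peak belonged to F32B5.9, with a signal of 101.9 and replicate signals of 55.2 and 43.1 (49.2 ± 8.57). Its summit lay 458 bp past the end of the gene, in the promoter of cpz-1, a cathepsin-type protease gene. With a distance of 250 bp in place of 500 bp this gene dropped out and the other 15 stayed.

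**Figure D2:**
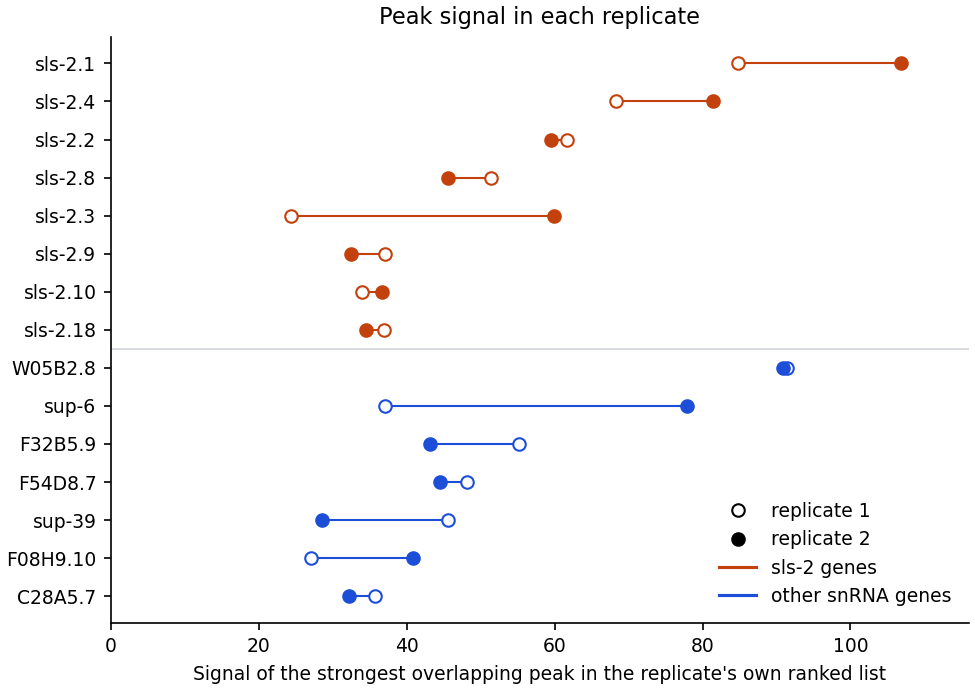
Signal of the strongest overlapping peak in each replicate's own ranked list (horizontal axis, signal as the authors' peak caller gave it) for the 15 pairs of replicate peaks, with sls-2 genes above the grey line and other snRNA genes below it; sup-39 stands also for mir-1831. Open circles are replicate 1 and filled circles replicate 2; the widest gaps are at sup-6 (37.0 and 77.9) and sls-2.3 (24.4 and 59.9).

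The signals of sls-2 peaks and of other snRNA peaks overlapped. The sls-2 peaks ran from 69.2 to 188.9 with a median of 84.3, and the other snRNA peaks from 70.3 to 180.1 with a median of 89.0. Replicate 1 was higher in 4 of the 8 sls-2 peaks and in 5 of the 7 other snRNA peaks. Neither group stood apart in signal.

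The replicates' own thresholded lists named fewer genes of both groups. In the list of replicate 1, 4 of 18 sls-2 genes (22.2%) and 4 of 111 other snRNA genes (3.6%) had a summit. In the list of replicate 2 these were 5 of 18 (27.8%) and 3 of 111 (2.70%). Of the 18 member peaks, 10 were overlapped by a peak of the replicate 1 list, which is 55.6%, against 30.3% of all conservative peaks. The share in the replicate 2 list was also 55.6%, against 52.4%. Both lists held 9 of the 18 peaks, against 23.5% of all conservative peaks. These 18 include weaker partners that rest on the same replicate peaks. With the strongest peak of each gene only, both lists held 4 of 8 sls-2 peaks and 3 of 7 other snRNA peaks. A score of 1000, the highest possible, was reached by 12 of the 18 peaks (66.7%), against 73.1% of all.

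Summits lay close to the start of these short genes. Over the 20 pairs of a summit and a member within 500 bp of it, the median summit lay 52.5 bp downstream of the start. For the strongest peak of each gene the median was 22.0 bp downstream at sls-2 genes and 52.0 bp at other snRNA genes. The summit was inside the gene at 4 of 8 sls-2 genes and at 5 of 8 other snRNA genes. Several genes stand in other genes. Of the genes with a summit, 1 of 8 sls-2 genes, sls-2.18 in the glutamate receptor gene glr-2, and 6 of 8 other snRNA genes lay inside a protein-coding gene. Among all members these were 7 of 18 sls-2 genes and 56 of 111 other snRNA genes. The 6 include both sup-39 and mir-1831, which share 1 peak. Of the 15 strongest peaks, those of sls-2.1, sls-2.4, sls-2.8, F32B5.9, F54D8.7, sup-39 and F08H9.10 had summits in a protein-coding promoter. The share over all conservative peaks is not given here, so this overlap is not read as a trait of these genes. Which gene a given peak serves was not tested.

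**Figure D3:**
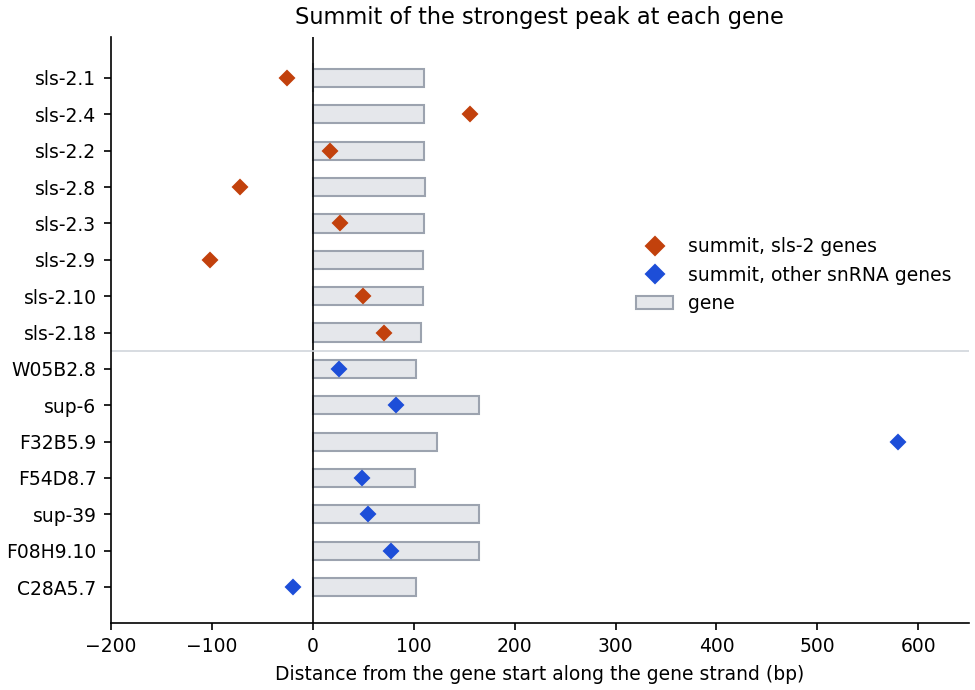
Position of the summit of the strongest peak at each gene, as distance from the gene start along the gene's strand (bp), with sls-2 genes above the grey line and other snRNA genes below it. Grey boxes are the genes drawn to scale and diamonds the summits, which lie within 102 bp of the gene start or inside the gene except at sls-2.4 and F32B5.9.

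Peaks under the threshold were read from the ranked list. The ranked list of both replicates holds 48276 peaks with a score from the IDR procedure (irreproducible discovery rate), by which peaks that hold their rank in both replicates score high. The lowest score in the thresholded lists was 830. Of the 18 sls-2 genes 16 had a ranked summit within 500 bp (88.9%), against 72 of the 111 other snRNA genes (64.9%) and 48.5% of all nuclear genes. The last share includes 15363 piRNA genes, of which 14.5% had a ranked summit. Protein-coding genes, which are longer, had 71.2% and tRNA genes 87.9%. The other snRNA share is therefore not read as above the background. The member counts include the genes already described. Of the genes with no summit in the conservative list, 8 of 10 sls-2 genes and 64 of 103 other snRNA genes (62.1%) had a ranked summit. Where their best ranked score was under the threshold, its median was 282 at sls-2 genes and 90 at other snRNA genes.

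The sls-2 genes without a summit in the conservative list had best scores of 101 to 655, apart from 2 genes with no ranked summit. sls-2.16 reached 655, with 23.3 and 36.6 in the replicates, and its summit lay 29 bp upstream of the start. A single peak with a score of 482 served sls-2.14 and sls-2.15, with 20.1 and 36.3 in the replicates. Then followed sls-2.6 with 344, sls-2.11 with 220, sls-2.13 with 147, sls-2.5 with 128 and sls-2.7 with 101. sls-2.12 and sls-2.17 had no ranked summit. ZK1251.14, which falls in the sls-2 family by sequence but was counted with the other snRNA genes, scored 227. In glr-2, where sls-2.5, sls-2.16 and sls-2.18 lie within a short stretch, the best scores were 128, 655 and 1000.

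Other snRNA genes with high scores under the threshold came from several families. F08G2.11 had a score of 688, with 29.6 and 27.9 in the replicates. smy-1, a gene for a SmY RNA, which is a nematode RNA found in complexes linked to trans-splicing, reached 639, with 22.5 and 39.5. The summit counted for smy-1 lay 429 bp from the start, past the end of the gene. Scores of 604, 585, 570 and 556 were found at Y47H9A.2, K09C6.12, C52E4.8 and F11A5.14. Y9C9A.111 reached 526 and F08H9.11 reached 464. C52E4.8 was the only further member with a summit in the other thresholded list. Over all members, 70 had ranked peaks that all scored below the threshold.

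By family, the 12 sls-1 genes gave no summit in the conservative list. They lie in a tandem array on chromosome V, and each has an identical copy there. A ranked peak with a score of 1000 and a signal of 95.4 lay between sls-1.11 and sls-1.9, with 40.5 and 58.8 in the replicates, and it was absent from the conservative list. Reads from identical copies cannot be placed with certainty, and the treatment of such reads is not stated in these sources. The family of 185 to 187 bases named after F08G2.9 gave 0 of 19, the smy family 0 of 9, the T11F9.15 family 0 of 5 and the B0213.21 family 0 of 7. The F38E11.11 family gave 1 of 12, the R07E5.16 family 3 of 24 and the sup-6 family 3 of 13. Of 44 members with an identical copy among the members, 3 had a summit, namely W05B2.8, F54D8.7 and C28A5.7, and of the 85 without one 13 had a summit (15.3%).

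By chromosome, a summit was found at 3 of 16 members on I (18.8%), against 5.69% of all genes there, at 6 of 16 on II (37.5%), against 5.41%, and at 5 of 13 on III (38.5%), against 5.68%. It was found at 1 of 41 members on IV (2.44%), against 1.42% of all genes there, at 1 of 40 on V (2.5%), against 2.82%, and at 0 of 3 on X, against 7.32%. The share on V was near that of all genes there. Chromosome IV holds 19704 of the 46890 nuclear genes. Of the 15363 piRNA genes on all chromosomes, 0.365% had a summit. How many of them lie on IV was not counted, so 1.42% is a poor background for the members there. On IV and V together the single genes were sls-2.10 and F08H9.10. Chromosome and family cannot be told apart here, since the families are not spread evenly.

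The extended half-site AAGGTCA, searched on both strands from 250 bases upstream to 50 bases downstream of the start, was in 6 of 18 sls-2 genes (33.3%), against 1 of 111 other snRNA genes (0.901%) and 2.65% of all nuclear genes. All 6 matches at sls-2 genes stood at the same place, 36 bases after the first base. A summit was present at 5 of these 6 genes and at 3 of the other 12 sls-2 genes. At the 5 genes the summit lay 12 and 22 bp upstream and 11 bp downstream of the middle of the heptamer for sls-2.3, sls-2.2 and sls-2.10. It lay 65 bp upstream at sls-2.1 and 117 bp downstream at sls-2.4. No other snRNA gene with a summit held this heptamer. The shorter AGGTCA, which AAGGTCA contains, was in 8 of 18 sls-2 genes (44.4%), against 5.41% of other snRNA genes and 7.29% of all genes. In the sup-6 family 10 of 13 genes held AGGTCA inside the gene on the opposite strand, sup-39 and F08H9.10 among them, but not sup-6.

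Within 75 bp of the summit, AAGGTCA was present at 4 of the 18 member peaks (22.2%), against 4.12% of all 1069 peaks. AGGTCA was present at 6 of 18 (33.3%), against 10.2%. The 4 peaks with AAGGTCA were those of sls-2.1, sls-2.2, sls-2.3 and sls-2.10, and since these genes are copies of one another they are not independent sites. A match of letters is not a measured binding site. TGATAA, a site of GATA factors, was in 1 of 18 sls-2 windows and 11 of 111 other snRNA windows (9.91%), against 29.0% of all genes.

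The 8-mer CGGAACCC was the one found upstream of the most members. It was in 31 of 129 windows, with 5 of 18 sls-2 genes (27.8%) and 26 of 111 other snRNA genes (23.4%), against 0.384% of all nuclear genes. Its first base lay 62 bases upstream in all 5 sls-2 genes and between 74 and 56 bases upstream in the others. The overlapping 8-mers GCGGAACC and GGAACCCG were in 23.3% and 18.6% of members, against 0.410% and 0.401% of all genes. A summit was present at 6 of the 31 genes with CGGAACCC (19.4%) and at 10 of the 98 without (10.2%). Among sls-2 genes it was present at 1 of 5 with this 8-mer, sls-2.8, and at 7 of 13 without. Among other snRNA genes it was present at 5 of 26 with it and at 3 of 85 without. Genes without this exact 8-mer can hold a related one at a like distance. AACCCGCG came from a search that was not planned, for the 8-mers found upstream of the most sls-2 genes. It was in 7 of 18 sls-2 genes (38.9%) and 5 of 111 other snRNA genes (4.5%). A higher share in sls-2 genes was built in by this choice. The share over all nuclear genes was 0.307%. AACCCGCG began 59 bases upstream at sls-2.18 and 55 at sup-39, which both lack CGGAACCC. At sls-2.7, sls-2.14, sls-2.15 and sls-2.16 it overlapped CGGAACCC. At sls-2.9 it began 186 bases upstream, which is not a like distance. A summit was present at 2 of the 7 sls-2 genes with AACCCGCG and at 6 of the 11 without.

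A further pair of motifs was chosen after the sequences had been seen. TGTCGGTA began 47 or 48 bases upstream in 23 members (17.8%), against 0.36% of all genes that held it. Of the 23, 5 were sls-2 genes and 13 were of the F08G2.9 family. A summit was present at 3 of the 23 (13.0%) and at 13 of the 106 members without TGTCGGTA (12.3%). TATATAA was in 23 members and in none of the 18 sls-2 genes, with 16 in the R07E5.16 family, against 8.08% of all genes. It lay between 40 and 20 bases upstream in 19 of 33 matches. The 3 genes with a summit that held it were W05B2.8, F54D8.7 and C28A5.7.

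**Figure D4:**
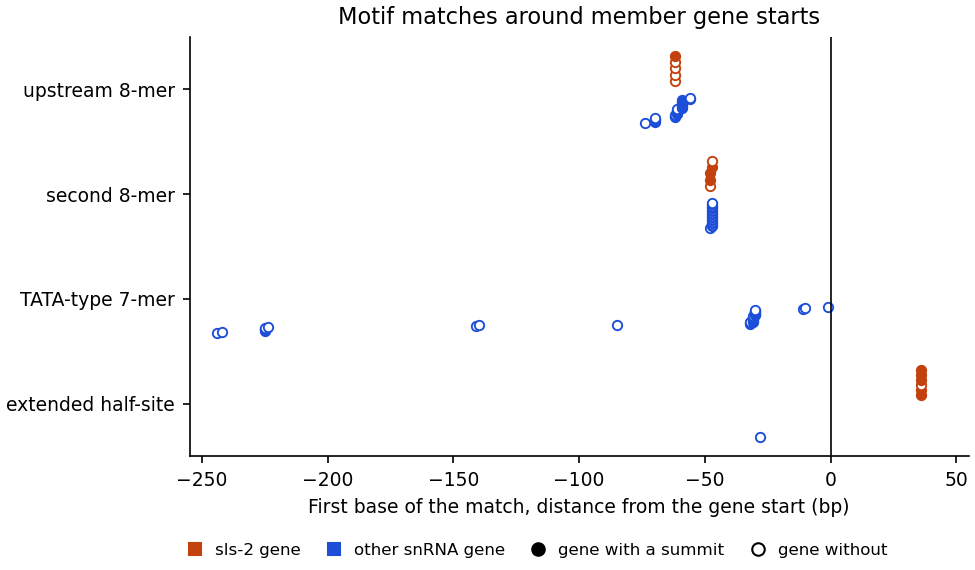
Position of the first base of each match relative to the gene start (bp, 250 upstream to 50 downstream) for the upstream 8-mer that was in the most members, the second 8-mer, the TATA-type heptamer and the extended half-site, with sls-2 genes above other snRNA genes in each row. Filled circles are genes with a summit in the conservative list; the 6 half-sites of sls-2 genes all stand at 36.

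The genes for the proteins that make and carry these RNAs were also counted. Lists of 63 protein genes covered SNAPc, TBP and polymerase III factors, Integrator, which cleaves snRNA precursors, Sm and Lsm proteins, proteins of the SL and U snRNPs, and factors of assembly and export. A summit lay in the promoter, which reached from 200 bp past a transcript start to 1000 bp before it, of 1 of the 63 (1.59%), against 2.68% of all protein-coding genes, a share near the background. That gene was ints-4, an Integrator subunit, with a signal of 82.9 and 36.1 and 42.1 in the replicates (39.1 ± 4.20). The summit lay 32 bp downstream of the nearest start. The counts were 1 of 11 for Integrator, 0 of 10 for SNAPc, TBP and polymerase III factors, 0 of 15 for Sm and Lsm proteins, 0 of 22 for snRNP proteins and 0 of 5 for assembly and export. In the ranked list 36 of the 63 had a summit in the promoter (57.1%), against 48.9% of all protein-coding genes.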

How the data were processed

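Binding of tagged NHR-41 was measured by ChIP-seq in 2 replicates. Per the labels, sonicated chromatin fragments measured 200 to 800 bp. The authors deposited peak lists on ce11, which give each peak a position, a summit offset, an IDR score capped at 1000 and a signal. Per the labels the lists are IDR ranked or thresholded; which aligner and peak caller were used, and what the signal is relative to, the sources used here do not say, and read depth was unknown. The deposited lists were a conservative list of 1069 peaks, another thresholded list of 1136, a ranked list of 48276, and for replicates 1 and 2 thresholded lists of 347 and 676 peaks and ranked lists of 38647 and 35958. All 1069 conservative peaks stood in the ranked list of both replicates with equal coordinates and values. A further 6 columns of signals per peak set, in ranked lists of other sets, were not used.

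Summits were compared with gene spans of Ensembl release 115 and, for sequences and names, the RefSeq annotation of the same assembly, which matched all 129 members. Replicate values are the highest signal of an overlapping peak in the replicate's own ranked list. Families were joined at 70% identity or more. Binomial intervals are exact (Clopper-Pearson, 95%) and cover counting error only. No test across genes was run, and no p-value is given. Named genes were every member with a summit, the 10 other members with the highest ranked score, all sls-2 genes, and up to 4 genes per protein list. F08H9.11, ZK1251.14 and K09B11.13 fall outside this rule and were chosen after their values were seen. The members, lists and most choices were made with earlier results of these data known, so counts are descriptions. Alternatives were other lists, distances, scores, promoter lengths and motif windows. The counting was tested on simulated data, where 75 of 75 planted genes were found among 200. Python 3.11.15, pandas 2.3.3, numpy 2.4.6, scipy 1.17.1 and Biopython 1.88 were used.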

Additional observations from a re-analysis of the deposited data

How the results depend on the processing

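The share of sls-2 genes with a summit, 44.4% in the conservative list, changed with the list used. Over the alternatives run, the lowest was 22.2%, in the list of replicate 1 alone, and the highest 9 of 18 genes. All lay inside the binomial interval, but that interval covers counting error only and does not measure spread between lists or replicates. The share of all members was 6.20% in each replicate's own list. For other snRNA genes it was 3.6% with 8 member peaks in all in the list of replicate 1 and 2.70% with 9 in that of replicate 2, against 18 peaks in the conservative list. With ranked peaks of a score of 540 or more, a setting chosen after the data had been seen, 19.4% of all members and 14.4% of other snRNA genes had a summit. The median summit position was 53.5 bp with the middle of the peak and 49.5 bp with each peak counted once. Most member peaks were 284 bp wide with the summit at their middle, so the first of these values could hardly differ. The median signal was 77.0 in the other thresholded list, 79.2 within 250 bp and 89.0 with 1 peak per pair, the last chosen after the data had been seen. Protein genes with a summit numbered 2 with promoters of 2000 bp and 2 in the other thresholded list, and 0 and 1 in the lists of replicates 1 and 2. In a window of 150 bp upstream, AAGGTCA was in 0.775% and TGATAA in 4.65% of members. With 1 mismatch, AAGGTCA was in 51.2% of members and 48.4% of all promoters, so that such matches do not set members apart. CGGAACCC, GCGGAACC and GGAACCCG with 1 mismatch were in 45%, 42.6% and 46.5% of members, against 6.33%, 6.66% and 6.95% of all promoters. Causes of these shifts were not tested. No paired analysis was possible because there was 1 group. With 2 replicates and no read totals, the depth behind a missing peak is unknown.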
